A study of Mus musculus with 8 samples.

Results

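This account describes 41 interferon-stimulated genes in CD4+ T cells of mice with or without a tumour, treated with an antibody against the interleukin-6 receptor (anti-IL-6R) or a control antibody. The genes were given as a list of names: the antiviral Ifit, Oas and Mx genes, the guanylate-binding and immunity-related GTPases, and other genes that interferons induce. The rule for the list set the antiviral class (10 genes) against a GTPase class (4 genes: Gbp2, Gbp3, Irgm1 and Igtp). All 41 were measured, among 21510 genes tested, and each was well above background on all 8 arrays, so none entered through one group alone.

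The study concerns how interleukin-6 inhibits Th1 cells, the helper T cells that make interferon-gamma, when a tumour is present. In all, 4 groups of 2 one-colour arrays were compared, 1 array per sample. All hosts were C57BL/6 mice given transgenic CD4+ T cells that recognise ovalbumin (OVA) and then immunised with dendritic cells carrying OVA peptide; CD4+ T cells were isolated 4 days later. The groups were mice bearing MCA205-OVA, a fibrosarcoma that makes OVA, given anti-IL-6R (TB anti-IL-6R, replicates 7 and 8); tumour-free mice given anti-IL-6R (TF anti-IL-6R, replicates 5 and 6); tumour-bearing mice given control Ab (TB control, replicates 3 and 4); and tumour-free mice given control Ab (TF control, replicates 1 and 2). The cells were CD4+ isolates and not sorted transferred cells, as far as the labels say, so host CD4+ T cells may be among them. The sources used here do not give the purity, the mice per sample or the antibody doses. Each condition came from 2 independent experiments, but which arrays share one is not given, so p-values reflect only how far these arrays spread.

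All arrays lay on 1 slide scanned on 1 day, with 500.3 to 526.6 as the 75th percentile of the signal. Control antibody arrays filled slide column 1 and anti-IL-6R arrays column 2, while tumour-free samples filled rows 1 and 2 and tumour-bearing samples rows 3 and 4, so slide position and group cannot be told apart. Over all genes, arrays correlated at 0.992 to 0.994 within groups and 0.978 to 0.992 between them. The summed scaled signal of 11 measured T cell markers was 804.5 to 902.1 on TB anti-IL-6R arrays, 916.3 to 964.9 on TF anti-IL-6R arrays, 1008 to 1034 on TB control arrays and 848.8 to 950.5 on TF control arrays, where 1 unit is the array's 75th percentile. The 2 CD8 markers summed to between 5.53 and 8.17 on every array. In such bulk samples, fewer cells of a type and less RNA per cell cannot be told apart.

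Type I interferons bind a receptor whose kinases, Jak1 and Tyk2, activate a complex that contains Stat2 and Irf9 and binds the interferon-stimulated response element (ISRE). Interferon-gamma uses another receptor, acts through the gamma-activated sequence (GAS) and induces Irf1. The Ifit, Oas and Mx genes are textbook targets of the type I route, while the Gbp and Irg GTPases, which act against intracellular microbes, are strongly induced by interferon-gamma in mice.

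Promoters were read from the RefSeq promoter table on GRCm38, which gives a window of 300 bases around a gene's start and held 31 of the 41 genes. Rtp4, Oas2, Dhx58, Mx2, Parp9, Zbp1, Parp14, Iigp1, Mx1 and Usp18 were not matched. The ISRE core, searched on both strands as GAAA, any 2 bases, GAAA, occurred in 16 of the 31 (51.6%), against 3.99% of the 27025 genes in the table. The GAS letters, TTCNNNGAA, occurred in 8 of the 31 (25.8%), against 9.55% of all genes. The ISRE letters were present in 4 of 7 antiviral promoters and in 4 of 4 GTPase promoters, so they did not separate the classes. A match is a description and not a binding site, and matches of the 2 motifs can overlap. Shown are the 160 bases before the start in 2 genes past the threshold below (Isg15, Rsad2), 3 antiviral genes and all 4 GTPases, with motif matches in capitals (overlapping matches run together). In Oas1a the first capital run, TTCAAAGAA, is the GAS match, and in Igtp the first run, TTCTAGGAA, is. The others are ISRE matches, which begin with TTTC where they lie on the opposite strand.
Isg15, chr4:156200819-156200978, minus strand: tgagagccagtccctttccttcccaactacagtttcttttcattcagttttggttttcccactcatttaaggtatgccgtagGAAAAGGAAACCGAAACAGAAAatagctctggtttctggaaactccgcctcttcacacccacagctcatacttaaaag
Rsad2, chr12:26456453-26456612, minus strand: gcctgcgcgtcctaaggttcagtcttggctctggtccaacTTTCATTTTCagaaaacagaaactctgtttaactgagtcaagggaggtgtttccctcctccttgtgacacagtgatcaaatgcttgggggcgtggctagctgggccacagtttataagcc
Ifit1, chr19:34640729-34640888, plus strand: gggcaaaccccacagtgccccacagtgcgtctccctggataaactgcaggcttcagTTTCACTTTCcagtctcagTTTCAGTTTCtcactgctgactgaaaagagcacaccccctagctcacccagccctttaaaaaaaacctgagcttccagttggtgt
Ifit3, chr19:34583369-34583528, plus strand: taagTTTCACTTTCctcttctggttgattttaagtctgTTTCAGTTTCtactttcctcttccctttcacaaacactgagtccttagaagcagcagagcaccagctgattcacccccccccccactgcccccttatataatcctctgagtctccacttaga
Oas1a, chr5:120907526-120907685, minus strand: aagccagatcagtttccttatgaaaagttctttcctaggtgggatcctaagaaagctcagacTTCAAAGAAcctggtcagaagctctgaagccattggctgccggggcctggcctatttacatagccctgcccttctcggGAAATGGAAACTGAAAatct
Gbp2, chr3:142620503-142620662, plus strand: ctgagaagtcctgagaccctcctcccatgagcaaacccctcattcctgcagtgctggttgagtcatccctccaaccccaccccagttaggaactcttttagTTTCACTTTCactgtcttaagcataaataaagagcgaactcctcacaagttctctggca
Gbp3, chr3:142559884-142560043, plus strand: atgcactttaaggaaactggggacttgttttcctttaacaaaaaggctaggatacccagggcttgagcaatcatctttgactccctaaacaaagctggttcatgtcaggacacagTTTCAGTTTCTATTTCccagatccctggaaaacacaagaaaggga
Irgm1, chr11:48871421-48871580, minus strand: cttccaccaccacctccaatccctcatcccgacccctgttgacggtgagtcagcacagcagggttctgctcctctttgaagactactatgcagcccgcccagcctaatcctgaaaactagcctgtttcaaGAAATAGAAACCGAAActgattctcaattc
Igtp, chr11:58199396-58199555, plus strand: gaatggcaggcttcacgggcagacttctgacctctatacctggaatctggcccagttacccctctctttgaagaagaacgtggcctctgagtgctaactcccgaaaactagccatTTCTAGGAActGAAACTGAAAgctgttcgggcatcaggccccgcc
The windows of Isg15, Ifit1, Ifit3, Oas1a, Gbp3 and Irgm1 each hold more than 1 ISRE match, and Isg15 holds 3 overlapping ones. Rsad2, the member with the widest range across arrays, holds 1, as do Gbp2 and Igtp.

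Across the 4 groups, most members were lowest in tumour-free mice given control antibody. In 27 of 41 members both TF control arrays lay below the other 6 arrays, against 4.85% of all genes tested. The pattern was counted after the values had been seen and is given without a test. It covered 8 of 10 antiviral genes (all but Ifit2 and Mx1), 1 of the 4 GTPases (Gbp3), and 18 of the 25 members outside the GTPases and antiviral genes, but neither Iigp1 nor Ifi47. No member had both TF control arrays above the other 6, which 3.54% of all genes did. Both arrays of another group were highest in few members. TB control arrays were highest for Isg20, Zbp1 and Eif2ak2 (17.2% of all genes), TF anti-IL-6R arrays for Irf9, Ifi47, Ddx58, Parp14 and Dtx3l (5.46%), and TB anti-IL-6R arrays for Gbp3 (3.18%). TB control arrays were lowest for Ifit2 and Irf1 (11.7%), and no member was lowest on both TB anti-IL-6R arrays (7.07%) or both TF anti-IL-6R arrays (2.58%).

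**Figure D1:**
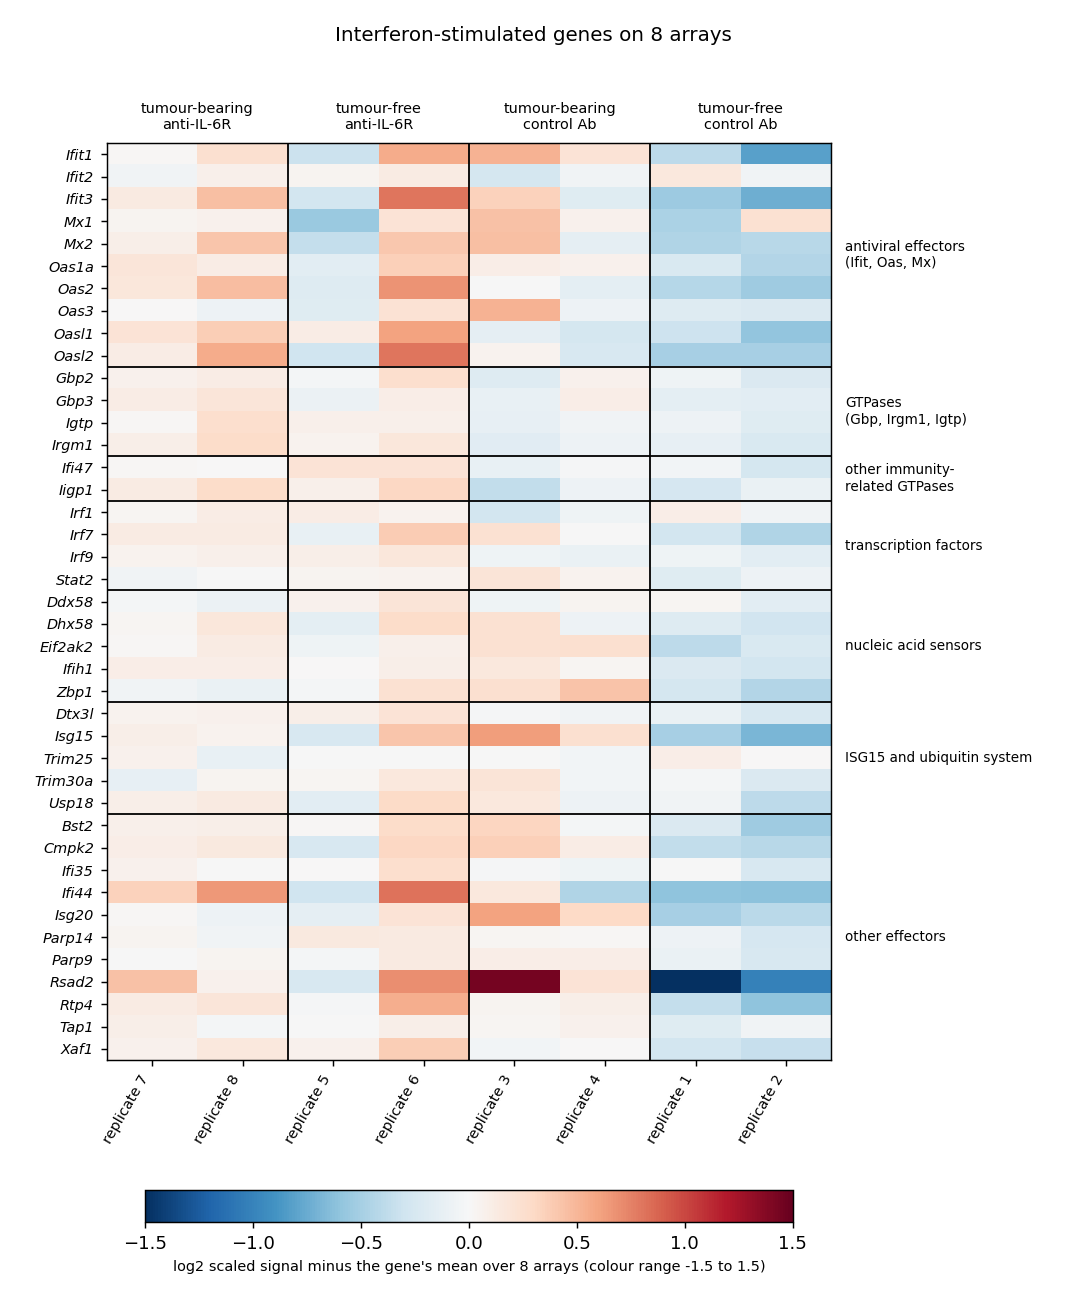
Log2 scaled signal of each of the 41 genes minus its own mean over the 8 arrays, with genes in rows by role and arrays in columns by group; red is above and blue below the gene's mean, and values beyond 1.5 share the end colour. The 2 TF control columns are mostly blue, and replicate 6 is redder than replicate 5 in the antiviral rows.

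Markers of other cells followed part of this order. Summed signal of the 13 measured erythroid markers (of 15 listed) was 1095 to 1348 on TB anti-IL-6R arrays, 1148 to 1370 on TF anti-IL-6R arrays, 1095 to 1705 on TB control arrays and 418.6 to 825.6 on TF control arrays. TF control was thus lowest here too, without overlap. This sum came mostly from the globin genes Hba-a1, Hba-a2 and Hbb-bt. Taken singly, every measured erythroid marker except Gata1, Klf1 and Ermap also had both TF control arrays below all others. The 12 neutrophil markers summed to 36.8 to 55.3 on TB anti-IL-6R arrays, 39.2 to 156.2 on TF anti-IL-6R arrays, 123.1 to 130.9 on TB control arrays and 34.8 to 55.3 on TF control arrays. This sum came mostly from S100a8 and S100a9. On replicate 6 these 2, Cxcr2 and Retnlg were above the TB control arrays, while Camp, Ltf, Ngp and Mpo were far below them. Of the 11 measured dendritic cell markers, which include the member Bst2, 7 lay above 0 in tumour-bearing against tumour-free mice under control antibody and 1, Klk1, rose. Their summed signal, which comes mostly from Siglech, was 217.5 to 231.8 on TB control arrays and 249 to 258.9 on TF control arrays. No measured marker had a signal of 0, and the part of these cells in the members' levels was not tested.

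The first question of the design was what a tumour does under control antibody. Of the 41 members, 5 rose in tumour-bearing against tumour-free mice and 0 fell, against 6.24% of all genes called in either direction (4.27% higher, 1.98% lower). Values are log2 signal scaled to each array's 75th percentile, differences are tumour-bearing minus tumour-free with the standard error, and the threshold is an adjusted p of 0.05 in limma over all genes tested. Differences lay above 0 for 37 of 41 members, against 11798 of the 21510 genes tested. The members' median was 0.29, against a median of 0.03 over all genes. Both TB control arrays lay above both TF control arrays for 27 members, which 30% of all genes did, and below for 3, which 22.9% did.

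Isg20, an RNA exonuclease, had log2 signals of 3.50 and 3.40 on TB anti-IL-6R, 3.34 and 3.68 on TF anti-IL-6R, 4.08 and 3.77 on TB control, and 2.98 and 3.07 on TF control arrays. Its difference of 0.90 ± 0.13 had an adjusted p of 0.00941, and its other probe gave 0.89. Zbp1, a sensor of nucleic acids in the Z form that can trigger necroptosis, measured 2.62 and 2.57 on TB anti-IL-6R, 2.64 and 2.90 on TF anti-IL-6R, 2.91 and 3.10 on TB control, and 2.41 and 2.23 on TF control arrays. TB control arrays were the highest and TF control arrays the lowest for both genes, with no overlap. The Zbp1 difference was 0.69 ± 0.11 (adjusted p = 0.0149) at the brighter probe, chr2:173039307-173039366 on mm9, but 0.13 at the dimmer one, chr2:173032258-173032317, so the size rests on the choice of probe.

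Isg15, a ubiquitin-like protein that is conjugated to other proteins, stood at 4.27 and 4.23 on TB anti-IL-6R, 3.94 and 4.59 on TF anti-IL-6R, 4.81 and 4.41 on TB control, and 3.68 and 3.50 on TF control arrays. The difference was 1.02 ± 0.20 (adjusted p = 0.0287). Rsad2, or viperin, a radical SAM enzyme that blocks virus replication, read 0.55 and 0.17 on TB anti-IL-6R, -0.12 and 0.81 on TF anti-IL-6R, 1.54 and 0.32 on TB control, and -1.49 and -0.91 on TF control arrays. Both genes were low on both TF control arrays, and replicate 3 was the highest of all arrays. Rsad2 differed by 2.13 ± 0.43 (4.37-fold, adjusted p = 0.0297), the widest difference among members; its 2 TB control arrays lay far apart, and its dimmer probe gave 2.19. Eif2ak2, the double-stranded RNA-activated kinase PKR, had log2 signals of -0.28 and -0.18 on TB anti-IL-6R, -0.37 and -0.22 on TF anti-IL-6R, -0.07 and -0.05 on TB control, and -0.69 and -0.52 on TF control arrays. It differed by 0.55 ± 0.11 (adjusted p = 0.0297), and the anti-IL-6R arrays lay between the 2 control antibody groups.

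**Figure D2:**
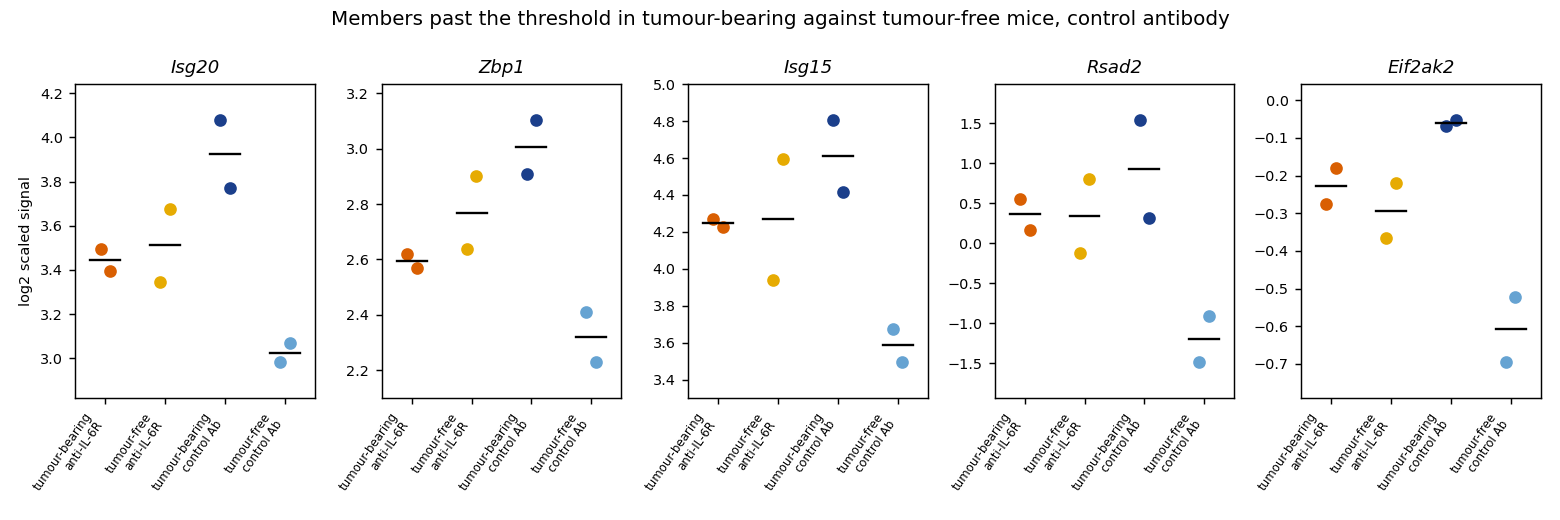
Log2 scaled signal (y axis) of the 5 members that passed the threshold in tumour-bearing against tumour-free mice under control antibody; points are arrays, bars are means of 2 arrays, and each panel has its own y range. In each panel both TB control points lie above both TF control points, and the anti-IL-6R points mostly lie between.

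These calls depended on single arrays and on the variance model. Without replicate 2, a TF control array, 0 members passed, and without replicate 5 or 6 there were 10, which added Rtp4, Ifit1, Irf7, Oas1a and Cmpk2. Without an intensity trend in the variance only Isg20 passed. In the same comparison 9 of 13 erythroid and 6 of 12 neutrophil markers rose and 0 fell. Plasma cell markers also rose (6 of 9, with sums of 50.7 to 55.2 on TB control and 29.7 to 30.1 on TF control arrays), while 6 of 12 B cell markers and 4 of 10 NK cell markers fell and 1 NK cell marker rose. For all of these lists, their part in the members' differences was not tested.

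Outside the antiviral and GTPase classes, whose genes are shown by array further on, the next 3 members by unadjusted p were Ifih1, Cmpk2 and Bst2. Ifih1, the RNA sensor MDA5, measured 1.00 and 0.99 on TB anti-IL-6R, 0.90 and 0.98 on TF anti-IL-6R, 1.05 and 0.93 on TB control, and 0.68 and 0.62 on TF control arrays. Cmpk2, a mitochondrial nucleotide kinase, stood at 0.28 and 0.32 on TB anti-IL-6R, -0.07 and 0.48 on TF anti-IL-6R, 0.54 and 0.29 on TB control, and -0.20 and -0.24 on TF control arrays. Bst2, or tetherin, which holds budding virions at the cell surface, read 3.68 and 3.69 on TB anti-IL-6R, 3.62 and 3.88 on TF anti-IL-6R, 3.93 and 3.58 on TB control, and 3.39 and 3.07 on TF control arrays. In all 3 the TF control arrays were the lowest. The other groups overlapped for Cmpk2 and Bst2, while for Ifih1 the TB anti-IL-6R arrays lay just above the TF anti-IL-6R arrays. Differences were 0.34 ± 0.09 for Ifih1, 0.63 ± 0.17 for Cmpk2 and 0.53 ± 0.15 for Bst2, with adjusted p of 0.0595 to 0.0782. A dimmer Ifih1 probe gave -0.10, so the direction for Ifih1 rests on the probe.

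The second question was what anti-IL-6R does in tumour-bearing mice. No member passed the threshold, against 5.87% of all genes (2.05% higher, 3.83% lower), and the smallest adjusted p was 0.0642; at an unadjusted p under 0.05, 5 members were higher and 2 lower, against 12.1% and 17.2% of all genes. Differences, anti-IL-6R minus control antibody, lay above 0 for 24 members and below for 17. Of all 21510 genes, 9076 lay above 0 and 12434 below. The members' median was 0.07, against -0.05 over all genes. Both TB anti-IL-6R arrays lay above both TB control arrays for 18 members (24.9% of all genes) and below for 7 (36.3%). The members with the smallest p went in different directions: Isg20 differed by -0.48 ± 0.13 and Zbp1 by -0.41 ± 0.11, while Iigp1 differed by 0.42 ± 0.13 and Irgm1 by 0.30 ± 0.09 (adjusted p 0.0642 to 0.0784). The dimmer Zbp1 probe gave 0.10, so the direction for Zbp1 rests on the probe, while the dimmer Isg20 probe gave -0.39. Leaving out replicate 5 or 6, neither of which belongs to the groups compared but which share the estimate of spread, put Isg20 past the threshold, lower.

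Iigp1, an immunity-related GTPase that attacks parasite vacuoles, had log2 signals of 2.99 and 3.14 on TB anti-IL-6R, 2.94 and 3.18 on TF anti-IL-6R, 2.50 and 2.79 on TB control, and 2.61 and 2.77 on TF control arrays. Irf1, the factor that interferon-gamma induces, measured 5.86 and 5.95 on TB anti-IL-6R, 5.95 and 5.89 on TF anti-IL-6R, 5.57 and 5.77 on TB control, and 5.93 and 5.78 on TF control arrays. Irf9, the DNA-binding partner of Stat2, stood at 4.08 and 4.11 on TB anti-IL-6R, 4.12 and 4.21 on TF anti-IL-6R, 3.97 and 3.94 on TB control, and 3.97 and 3.88 on TF control arrays. In all 3 both TB anti-IL-6R arrays lay above both TB control arrays. Irf1 differed by 0.24 ± 0.09 (adjusted p = 0.121) and was past the threshold, higher, under quantile normalization; Irf9 differed by 0.14 ± 0.07 (adjusted p = 0.215).

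The same antibody in tumour-free mice was compared with the same tumour-free controls that served above. No member passed the threshold, against 0.0186% of all genes (4 genes, 0.0093% higher and 0.0093% lower), and the smallest adjusted p was 0.3. At an unadjusted p under 0.05, 26 members were higher and 0 lower, against 4.77% and 3.16% of all genes. Differences lay above 0 for 39 of 41, against 12573 of all 21510 genes. The members' median was 0.31, against 0.03 over all genes. Both TF anti-IL-6R arrays lay above both TF control arrays for 36 members, which 24.9% of all genes did, and below for 1 (15.4%), the ubiquitin ligase gene Trim25. That direction rests on the probe used, since both other Trim25 probes gave differences above 0 (0.32 and 0.23).

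Xaf1, a pro-apoptotic partner of the inhibitor XIAP, read 1.89 and 1.98 on TB anti-IL-6R, 1.89 and 2.20 on TF anti-IL-6R, 1.79 and 1.83 on TB control, and 1.55 and 1.49 on TF control arrays. Rtp4, a chaperone of membrane receptors, had log2 signals of 3.78 and 3.84 on TB anti-IL-6R, 3.63 and 4.20 on TF anti-IL-6R, 3.69 and 3.74 on TB control, and 3.29 and 3.05 on TF control arrays. Ifi47, an immunity-related GTPase, measured 5.89 and 5.88 on TB anti-IL-6R, 6.07 and 6.08 on TF anti-IL-6R, 5.77 and 5.85 on TB control, and 5.83 and 5.61 on TF control arrays. The TF control arrays were lowest for Xaf1 and Rtp4, while for Ifi47 the TF anti-IL-6R arrays were highest, followed by the TB anti-IL-6R arrays, and the 2 control antibody groups overlapped. Differences were 0.53 ± 0.11 for Xaf1, 0.74 ± 0.17 for Rtp4 and 0.35 ± 0.08 for Ifi47, with adjusted p of 0.3, 0.394 and 0.419. Without replicate 5, Rtp4 and Oas2 passed the threshold.

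The last pair of groups was tumour-bearing against tumour-free mice under anti-IL-6R. No member passed (0.307% of all genes did, 0.265% higher and 0.0418% lower), and the smallest adjusted p was 0.537. At an unadjusted p under 0.05 there were 0 higher and 1 lower, against 3.69% and 4.29% of all genes. Differences lay between -0.19 and 0.23, with a median of -0.02, against -0.06 over all genes. Of all 21510 genes, 8234 lay above 0 and 13276 below. Of the members, 18 lay above 0 and 23 below. Without replicate 5 only 5 lay above 0, and without replicate 6 there were 30. Both tumour-bearing arrays lay above both tumour-free arrays for 2 members (15.7% of all genes) and below for 7 (34.4%). Ddx58, the RNA sensor RIG-I, stood at 3.54 and 3.48 on TB anti-IL-6R, 3.63 and 3.75 on TF anti-IL-6R, 3.50 and 3.60 on TB control, and 3.60 and 3.41 on TF control arrays. Parp14, an ADP-ribosyltransferase, read 3.75 and 3.67 on TB anti-IL-6R, 3.85 and 3.84 on TF anti-IL-6R, 3.75 and 3.74 on TB control, and 3.64 and 3.47 on TF control arrays. With Ifi47, these had the smallest p, at -0.18 ± 0.09 for Ddx58, -0.14 ± 0.08 for Parp14 and -0.19 ± 0.08 for Ifi47. The 2 TF anti-IL-6R arrays were the highest of all 8 for each of the 3. A p that misses the threshold does not show that the hosts were alike: the standard error of Isg15 was 0.20 and that of Rsad2 0.43, around differences of -0.02 and 0.02.

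Whether the antibody difference itself differed by host, tumour-bearing minus tumour-free, was tested as an interaction. No member passed, against 0.0418% of all genes (0.0093% above 0 and 0.0325% below). The smallest adjusted p was 0.0762 for Zbp1, at -0.86 ± 0.16, followed by 0.0766 for Isg20, at -0.96 ± 0.19. The dimmer probes gave -0.28 for Zbp1, so its size rests on the probe, and -0.98 for Isg20. At an unadjusted p under 0.05, 14 members were below 0 and 0 above, against 15.1% and 10% of all genes. The term was below 0 for 34 of 41 members, against 13096 of all 21510 genes. The members' median was -0.32, against -0.09 over all genes. For Eif2ak2, Isg15, Isg20, Parp9, Stat2 and Zbp1 the anti-IL-6R arrays lay below the control arrays in tumour-bearing mice and above them in tumour-free mice, with no overlap in either host. Of all genes, 36.3% lay below without overlap in tumour-bearing mice and 24.9% above in tumour-free mice. The share that did both was not counted, so whether these genes stand out is not known. At the dimmer Zbp1 probe the antibody differences were above 0 in both hosts (0.10 in tumour-bearing and 0.37 in tumour-free mice). The dimmer Stat2 probe gave 0.09 and 0.02, in the same order. The dimmer Parp9 probes gave 0.34 and -0.47, -0.58 and -0.51, and -0.25 and 0.59, and none of them was well above background on all 8 arrays. The opposite directions for Zbp1, Stat2 and Parp9 thus rest on the probe used. Stat2, which carries the activation domain of the type I interferon complex, had log2 signals of 2.53 and 2.58 on TB anti-IL-6R, 2.62 and 2.64 on TF anti-IL-6R, 2.77 and 2.63 on TB control, and 2.40 and 2.50 on TF control arrays. Its antibody differences were -0.15 ± 0.08 in tumour-bearing and 0.18 ± 0.08 in tumour-free mice, and its interaction was -0.33 ± 0.11 (adjusted p = 0.137); that of Bst2 was -0.59 ± 0.21 and that of Parp14 -0.33 ± 0.11.

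The antiviral class had median deviations from its genes' own means of -0.47 to 0.48 over the arrays. Ifit1, which binds viral RNA lacking host-type cap methylation, measured 0.24 and 0.46 on TB anti-IL-6R, -0.10 and 0.77 on TF anti-IL-6R, 0.74 and 0.42 on TB control, and -0.18 and -0.59 on TF control arrays. Its relative Ifit2 stood at 0.42 and 0.54 on TB anti-IL-6R, 0.51 and 0.59 on TF anti-IL-6R, 0.21 and 0.41 on TB control, and 0.63 and 0.42 on TF control arrays. Ifit3 read 1.24 and 1.56 on TB anti-IL-6R, 0.84 and 1.91 on TF anti-IL-6R, 1.46 and 0.92 on TB control, and 0.56 and 0.38 on TF control arrays. Ifit1 and Ifit3 were lowest on the TF control arrays and high on replicate 6, whereas Ifit2 was lowest on the TB control arrays and varied little.

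The oligoadenylate synthetases make the second messenger that activates RNase L. Oas1a had log2 signals of 3.53 and 3.45 on TB anti-IL-6R, 3.18 and 3.70 on TF anti-IL-6R, 3.44 and 3.41 on TB control, and 3.12 and 2.90 on TF control arrays. Oas2 measured 2.35 and 2.64 on TB anti-IL-6R, 1.99 and 2.86 on TF anti-IL-6R, 2.17 and 2.03 on TB control, and 1.75 and 1.65 on TF control arrays. Oas3 stood at -0.36 and -0.45 on TB anti-IL-6R, -0.55 and -0.14 on TF anti-IL-6R, 0.15 and -0.44 on TB control, and -0.56 and -0.58 on TF control arrays. All 3 were lowest on the TF control arrays; replicate 6 was highest for Oas1a and Oas2, and replicate 3 for Oas3. Oasl1, a relative that restrains translation of Irf7 in mice, read 2.07 and 2.25 on TB anti-IL-6R, 1.98 and 2.48 on TF anti-IL-6R, 1.74 and 1.60 on TB control, and 1.56 and 1.28 on TF control arrays. Oasl2 had log2 signals of 0.94 and 1.39 on TB anti-IL-6R, 0.53 and 1.64 on TF anti-IL-6R, 0.89 and 0.59 on TB control, and 0.33 and 0.33 on TF control arrays. For both, replicate 6 was the highest array and the TF control arrays the lowest.

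The Mx proteins are dynamin-like GTPases against viruses, and C57BL/6 mice are known to carry a defective Mx1. Mx1 measured -0.12 and -0.10 on TB anti-IL-6R, -0.72 and 0.05 on TF anti-IL-6R, 0.28 and -0.09 on TB control, and -0.63 and 0.07 on TF control arrays. Mx2 stood at -0.69 and -0.36 on TB anti-IL-6R, -1.13 and -0.36 on TF anti-IL-6R, -0.32 and -0.90 on TB control, and -1.22 and -1.18 on TF control arrays. The 2 arrays of each tumour-free group lay far apart for Mx1, and Mx2 was lowest on the TF control arrays. For tumour under control antibody a dimmer Mx2 probe gave -0.32, against 0.59 at the probe used. In the tumour comparison under control antibody the 10 antiviral genes had a median difference of 0.41, led by Ifit1 at 0.96 ± 0.27, with 9 above 0 and 0 past the threshold.

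The GTPase genes spanned a narrower range, with median deviations from their own means of -0.20 to 0.22 over the arrays. Gbp2, a guanylate-binding protein, read 3.52 and 3.56 on TB anti-IL-6R, 3.42 and 3.70 on TF anti-IL-6R, 3.26 and 3.52 on TB control, and 3.38 and 3.23 on TF control arrays. Gbp3 had log2 signals of 2.52 and 2.59 on TB anti-IL-6R, 2.31 and 2.50 on TF anti-IL-6R, 2.30 and 2.50 on TB control, and 2.26 and 2.25 on TF control arrays. Within each host both anti-IL-6R arrays lay above both control antibody arrays for Gbp2 and Gbp3, by narrow margins. For Gbp2 in tumour-bearing mice the nearest arrays were at 3.5171 (anti-IL-6R) and 3.5168 (control), which are almost equal. For Gbp3 the TF control arrays were the lowest and the TB anti-IL-6R arrays the highest of all. Irgm1, a regulator of the other immunity-related GTPases, measured 3.38 and 3.56 on TB anti-IL-6R, 3.34 and 3.46 on TF anti-IL-6R, 3.12 and 3.22 on TB control, and 3.16 and 3.06 on TF control arrays. Igtp, also known as Irgm3, stood at 5.53 and 5.77 on TB anti-IL-6R, 5.59 and 5.59 on TF anti-IL-6R, 5.39 and 5.46 on TB control, and 5.44 and 5.34 on TF control arrays. The gap between antibodies within each host thus held for 4 of 4 GTPases. Of all genes, 24.9% showed it in tumour-bearing mice and 24.9% in tumour-free mice, each host taken singly. The share of all genes with the gap in both hosts was not counted. Irgm1 and Igtp were higher on all 4 anti-IL-6R arrays than on all 4 control antibody arrays. That split, also counted after the values had been seen and the same as that of the slide columns, held for 9 of 41 members, against 2.91% of all genes. They were Igtp, Irgm1, Iigp1 and Ifi47 among the GTPases, Oasl1 as the 1 antiviral gene, and Xaf1, Irf9, Ifi35 and Dtx3l. In the tumour comparison under control antibody the 4 genes had a median difference of 0.07, with 4 of 4 above 0 (2 of 4 with quantile normalization) and 0 past the threshold.

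The antiviral and GTPase medians differed by 0.34 in that comparison (0.41 against 0.07), by 0.12 without replicate 3 and by 0.55 without replicate 4. For anti-IL-6R in tumour-free mice they were 0.59 and 0.23, for anti-IL-6R in tumour-bearing mice 0.13 and 0.19, and for tumour under anti-IL-6R 0.03 and 0.06; the interaction medians were -0.35 and 0.01. With Iigp1 and Ifi47 among the GTPases their medians were 0.07, 0.27, 0.19, 0.03 and 0.01, in the same order. Members are not replicates, so these are descriptions. One sample group decided several of them: the median deviation of the antiviral genes from their own means was -0.23 on replicate 5 and 0.48 on replicate 6, both TF anti-IL-6R, against 0.01 and 0.14 for the GTPases. Without replicate 5 the antiviral minus GTPase difference for anti-IL-6R in tumour-free mice was 0.65, and without replicate 6 it was 0.033. For tumour under anti-IL-6R it was -0.32 without replicate 5 and 0.35 without replicate 6. The neutrophil marker sum was also higher on replicate 6 (156.2) than on replicate 5 (39.2), and its part was not tested. That gap came mostly from S100a8 and S100a9, and Elane was not higher on replicate 6.

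**Figure D3:**
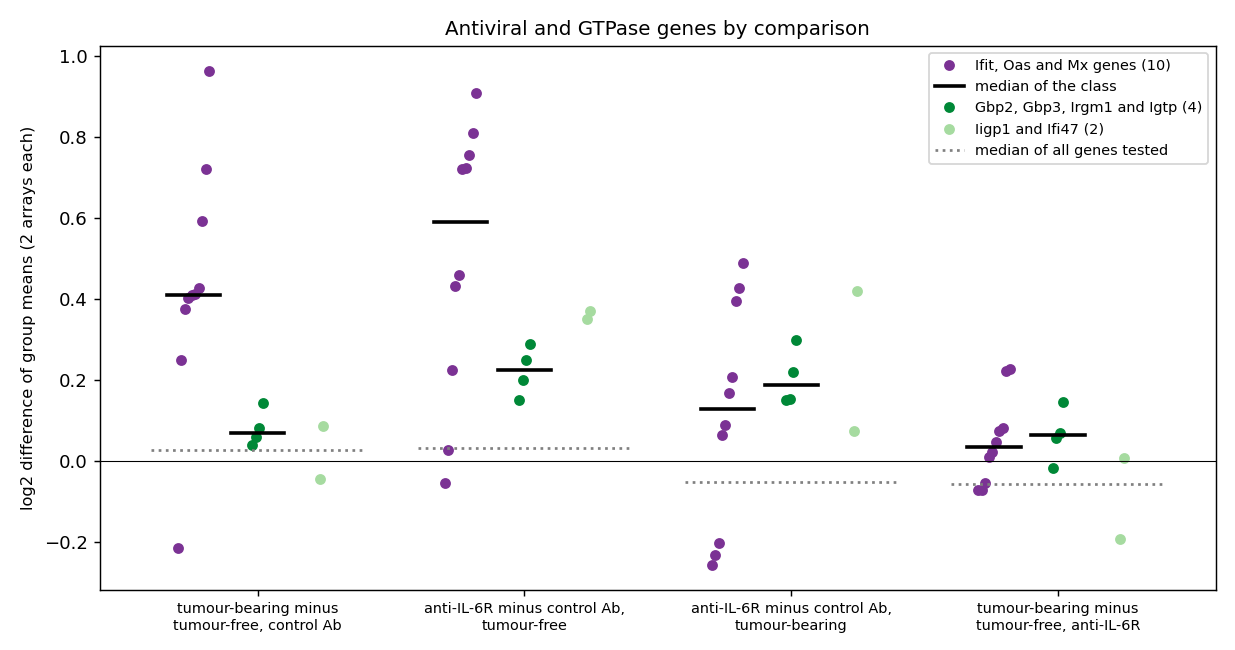
Log2 differences of group means (y axis) for the antiviral genes (purple), the GTPases Gbp2, Gbp3, Irgm1 and Igtp (dark green) and Iigp1 and Ifi47 (light green) in 4 comparisons; each point is a gene, black bars are class medians and dotted lines the median of all genes. Antiviral medians lie above GTPase medians in the 2 comparisons with the TF control arrays (0.41 and 0.59) and close to them in the others.

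The 10 members not yet shown by array were the factor Irf7, the sensor Dhx58, the ubiquitin system genes Usp18 (which removes Isg15), Trim25, Trim30a and Dtx3l, and Parp9, Tap1, Ifi35 and Ifi44. Their differences under control antibody, tumour-bearing minus tumour-free, ranged from -0.07 for Trim25 to 0.47 for Irf7, the amplifier of type I interferon production. For anti-IL-6R in tumour-free mice they ranged from -0.06 for Trim25 to 0.87 for Ifi44. Both other Trim25 probes gave positive tumour differences (0.22 and 0.21), against -0.07 for the brighter one used. The same held for anti-IL-6R in tumour-free mice (0.32 and 0.23, against -0.06). Tap1, the peptide transporter for MHC class I, differed by 0.16 ± 0.08 between hosts under control antibody.

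Other genes of the pathway came from a list of 130, of which 118 were measured. In tumour-bearing against tumour-free mice under control antibody, 3 rose (Ly6a, Ifi27l2a and Tnfsf10) and 2 fell (Cxcl9 and Gbp8), against 4.27% and 1.98% of all genes. With anti-IL-6R in tumour-bearing mice, 5 rose (Cxcl9, Gbp8, Ifi205, Cxcl10 and Gbp6) and 3 fell (Ly6a, Stat3 and Tnfsf10), against 2.05% and 3.83% of all genes. As a set, the 118 thus did not stand out from all genes in these counts. In the 3 other tests 0 passed, against 0.0186% of all genes for antibody in tumour-free mice, 0.307% for tumour under anti-IL-6R and 0.0418% for the interaction. The smallest p for anti-IL-6R in tumour-free mice belonged to Apol9b (0.88 ± 0.14, adjusted p = 0.168) and Ifi27l2a (0.55 ± 0.09, adjusted p = 0.175). For tumour under anti-IL-6R they belonged to Ifi205 (0.53 ± 0.14, adjusted p = 0.438) and Epsti1 (-0.33 ± 0.10, adjusted p = 0.537), and for the interaction to Ifi27l2a (-0.90 ± 0.13, adjusted p = 0.0574) and Ly6a (-0.69 ± 0.11, adjusted p = 0.0737). Medians over the 118 were 0.04, 0.02, 0.10 and -0.06 in the comparisons of tumour under control antibody, antibody in tumour-bearing mice, antibody in tumour-free mice and tumour under anti-IL-6R. Over all genes they were 0.03, -0.05, 0.03 and -0.06, in the same order.

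Ly6a, or Sca-1, a surface protein of activated T cells, read 4.83 and 4.73 on TB anti-IL-6R, 4.66 and 4.80 on TF anti-IL-6R, 5.30 and 5.20 on TB control, and 4.50 and 4.53 on TF control arrays. Ifi27l2a, a small interferon-induced membrane protein, had log2 signals of 7.36 and 7.24 on TB anti-IL-6R, 7.37 and 7.56 on TF anti-IL-6R, 7.69 and 7.62 on TB control, and 6.98 and 6.85 on TF control arrays. Tnfsf10, the death ligand TRAIL, measured 0.82 and 0.65 on TB anti-IL-6R, 0.98 and 0.87 on TF anti-IL-6R, 1.14 and 1.12 on TB control, and 0.74 and 0.70 on TF control arrays. All 3 were highest on the TB control arrays. Under control antibody the tumour differences were 0.74 ± 0.08 for Ly6a, 0.74 ± 0.09 for Ifi27l2a and 0.41 ± 0.09 for Tnfsf10 (adjusted p 0.00316, 0.00509 and 0.0432). The antibody in tumour-bearing mice gave -0.47 ± 0.08 for Ly6a and -0.40 ± 0.09 for Tnfsf10 (adjusted p 0.0255 and 0.0477). Both comparisons use the TB control arrays.

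Cxcl9, a chemokine known as a marker of interferon-gamma, stood at -0.09 and -0.13 on TB anti-IL-6R, -0.25 and -0.41 on TF anti-IL-6R, -1.10 and -1.13 on TB control, and -0.41 and -0.47 on TF control arrays. Gbp8 read 2.43 and 2.47 on TB anti-IL-6R, 2.41 and 2.44 on TF anti-IL-6R, 2.09 and 2.05 on TB control, and 2.49 and 2.44 on TF control arrays. Both were lowest on the TB control arrays, opposite to Ly6a, with the other 3 groups close together for Gbp8. Cxcl9 differed by 1.01 ± 0.10 with anti-IL-6R in tumour-bearing mice (adjusted p = 0.016) and by -0.67 ± 0.10 with tumour under control antibody (adjusted p = 0.0111). Gbp8 differed by 0.38 ± 0.07 and -0.40 ± 0.07 in the same comparisons (adjusted p = 0.0283 and 0.0188). Also higher with anti-IL-6R in tumour-bearing mice were Cxcl10, a chemokine, by 0.74 ± 0.16, Gbp6 by 0.40 ± 0.09 and Ifi205 by 0.71 ± 0.14 (adjusted p 0.0368 to 0.0468). Macrophage and monocyte markers, other cells that can make Cxcl9 and Cxcl10, summed to 262.5 to 303.4 on TB anti-IL-6R arrays and 178.6 to 254 on TB control arrays, with 1 of 12 higher past the threshold; their part was not tested.

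**Figure D4:**
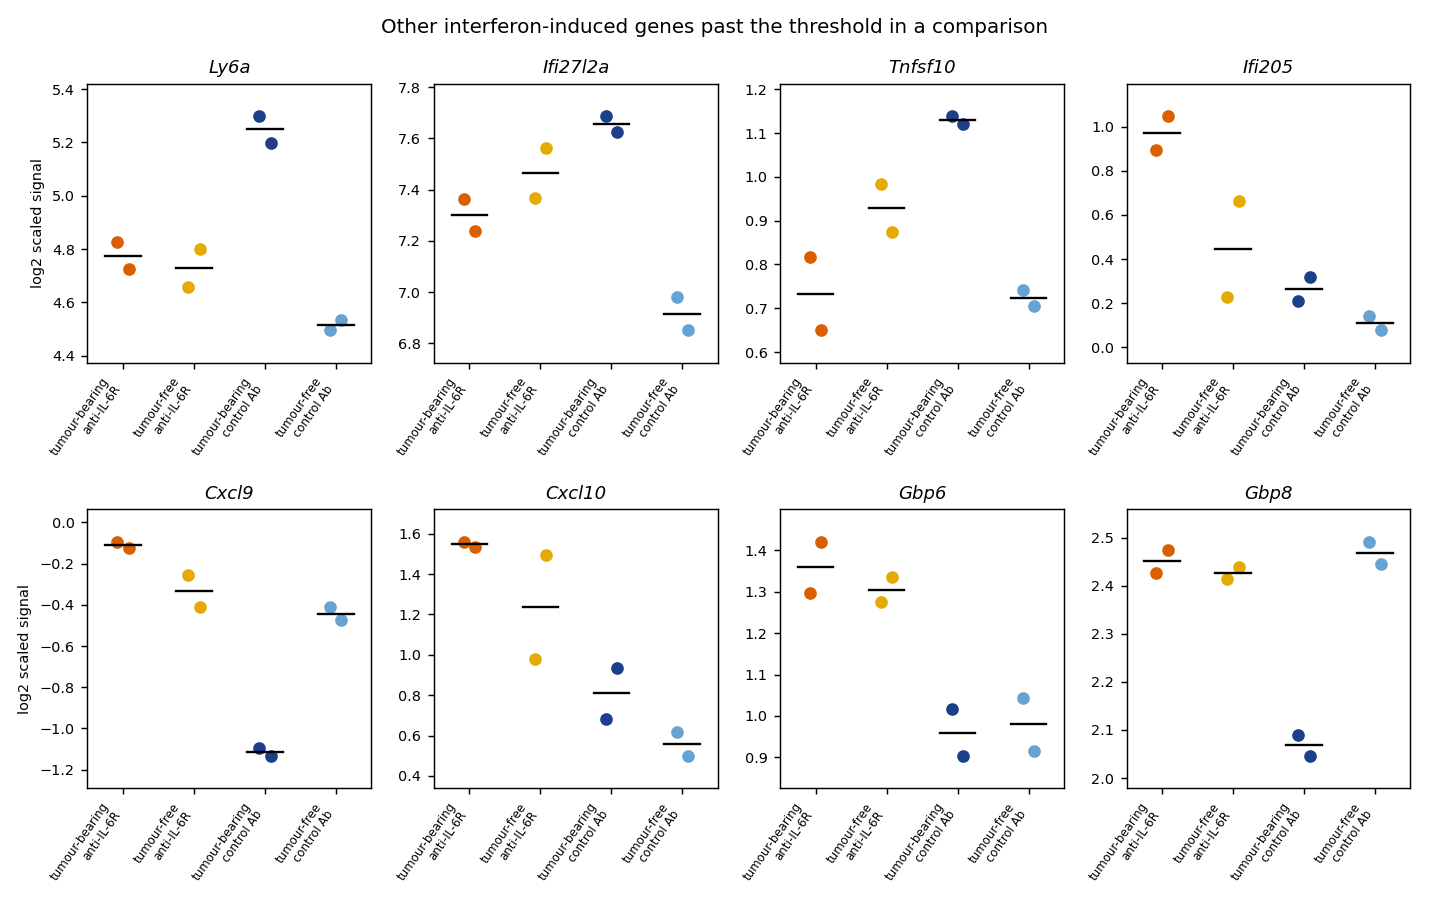
Log2 scaled signal (y axis) of 8 other interferon-induced genes that passed the threshold in a comparison; points are arrays, bars are means of 2 arrays, and each panel has its own y range. Ly6a, Ifi27l2a and Tnfsf10 are highest, and Cxcl9 and Gbp8 lowest, in the TB control group.

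Of the ligands, interferon-gamma (Ifng) had log2 signals of 1.86 and 2.47 on TB anti-IL-6R, 1.63 and 1.98 on TF anti-IL-6R, 1.25 and 1.93 on TB control, and 2.22 and 2.34 on TF control arrays. Both TF control arrays lay above both TB control and both TF anti-IL-6R arrays. The tumour difference under control antibody was -0.69 ± 0.25 and did not pass (adjusted p = 0.141). Transcripts of Ifnb1 and Ifna4 were not measured, since no probe was well above background on both arrays of a group. Ifna1, Ifna2, Ifna5 and Ifnl3 were well above background on all 8 arrays. Ifna5 read -2.90 and -2.70 on TB anti-IL-6R, -3.06 and -2.91 on TF anti-IL-6R, -0.95 and -2.75 on TB control, and -2.99 and -2.88 on TF control arrays. It was thus highest on replicate 3 alone, and its part in the members' levels was not tested. The type I receptor chain gene Ifnar1 measured 3.58 and 4.17 on TB anti-IL-6R, 3.14 and 3.60 on TF anti-IL-6R, 2.85 and 3.13 on TB control, and 3.43 and 3.66 on TF control arrays, with a difference of 0.89 ± 0.22 for anti-IL-6R in tumour-bearing mice (adjusted p = 0.0517). No receptor, kinase or ligand gene passed in any comparison. Stat3, the main transcription factor downstream of the interleukin-6 receptor, stood at 3.89 and 3.87 on TB anti-IL-6R, 3.96 and 4.13 on TF anti-IL-6R, 4.21 and 4.23 on TB control, and 3.99 and 3.93 on TF control arrays, and fell by 0.34 with anti-IL-6R in tumour-bearing mice (adjusted p = 0.0442).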

How the data were processed

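Total RNA of CD4+ T cells was labelled with Cy3, 1 array per sample. Spot intensity, read with Agilent Feature Extraction (version 10.10.1.1 in the submitters' processing notes), was background-subtracted and detrended with surrogates for dim spots, per the file headers. The deposited value table holds log2 values; each column correlated at r = 1 with the values below (offset 0.0017 to 0.0081). Outlier spots (60 to 95 per array) were dropped, spots of a probe averaged (56587 probes) and log2 signals centred on the array's 75th percentile. A probe was kept if well above background on both arrays of a group (32039), and a gene took its brightest kept probe. Gene names were updated through RefSeq by accession for 33895 probes and by symbol for 9953; 12757 kept the file's name. limma 3.58.1 (R 4.3.3, package data.table at version 1.17.8) fitted 4 group means over all 8 arrays (4 residual degrees of freedom) with an intensity trend; tests were two-sided, with Benjamini-Hochberg adjustment over 21510 genes and a threshold of 0.05. The fit was tested on simulated data. The number of arrays limits the precision. Probe positions are mm9, per the file headers. Values by array are given for each antiviral and GTPase gene, each member past the threshold and the next 3 members by p in each comparison. Members, lists and tests were chosen with earlier results of these data known. Alternatives are given in the closing section. Python 3.11.15, pandas 2.3.3 and matplotlib 3.10.9 drew the plots.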

Additional observations from a re-analysis of the deposited data

How the results depend on the processing

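With 2 arrays per group, single arrays decided many calls. For tumour under control antibody, the 5 members past the threshold became 2 with no filter on dim probes, 1 with no intensity trend, 3 with array weights and 9 with only the arrays compared, and 0 to 10 when 1 array was left out (0 without replicate 2); all genes called fell to 570, 622 and 765 in the first 3 of these and to 286 without replicate 2, against 1343. Of 18 settings, Isg20 passed in 17, Zbp1 in 14, and Isg15, Rsad2 and Eif2ak2 in 12 each. For anti-IL-6R in tumour-bearing mice, 1 member passed with quantile normalization and 0 to 1 with 1 array left out, while all genes called were 25 with no filter and 87 with no intensity trend, against 1263. For anti-IL-6R in tumour-free mice, leaving out 1 array gave 0 to 2. In the other 2 tests no setting put a member past the threshold. The antiviral minus GTPase median ranged, with 1 array left out, from 0.12 to 0.55 for tumour under control antibody, from -0.27 to 0.11 for anti-IL-6R in tumour-bearing mice, from 0.033 to 0.65 for anti-IL-6R in tumour-free mice, from -0.32 to 0.35 for tumour under anti-IL-6R and from -0.65 to -0.085 for the interaction. The count of members lowest on the TF control arrays, 27, was 24 to 27 under other scalings, filters and probe rules, chosen after seeing the data, and 27 to 36 with 1 array left out; of all genes, 3.41% to 6.29% and 5.39% to 19.6% did so. Quantile normalization raised the members above 0 for tumour under anti-IL-6R to 32, against 18; leaving out replicate 5 gave 5 and leaving out replicate 6 gave 30. Causes of these changes were not tested. In the comparison in which a member passed in some setting, its direction stayed the same in all settings run; directions in the other comparisons were followed only as counts. No paired analysis was possible because the labels number the arrays 1 to 8 across groups, which share no number.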
